A study of Mus musculus with 12 samples.

Results

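Expression of 10 hepatic stellate cell genes was examined in whole livers of leptin-deficient mice with and without ethionine. The genes were listed by name, as markers of stellate cell identity and as receptors and ligands that stellate cells use: Lrat, Reln, Colec11, Ngfr, Pdgfra, Pdgfrb, Hgf, Des, Vim and Rgs5. They were not ranked by measured change, but earlier results of these data were known when they were chosen. All 10 were found among the 56205 genes of the count table, and all 10 had enough counts to be among the 13416 genes tested. The 12 samples were livers of ob/ob mice (strain B6.Cg-Lep ob/J), stated to be male and 8 to 10 weeks of age at the start, with 1 poly(A) RNA library per liver. The FLO group (6 animals) received standard chow, and the fibrotic group (6 animals) received the same chow with DL-ethionine, an ethyl analogue of methionine that is toxic to the liver. Every animal of both groups lacks functional leptin, so no liver with an intact leptin gene enters the comparison. The sources differ on the treatment: the labels give 0.165% ethionine in drinking water for 2 weeks and, elsewhere, an injection of 0.15%, and the study's methods give 0.15% for 1 week. The group names are the submitters' own, and no measurement of scar tissue in these animals is used here.

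Hepatic stellate cells lie in the narrow space between hepatocytes and the sinusoidal endothelium. In the quiet state they store most of the body's vitamin A as retinyl esters in lipid droplets, which the enzyme encoded by Lrat makes from retinol. After injury they can lose those droplets, take on features of myofibroblasts and lay down collagen, and signalling through PDGF receptors drives them to divide and migrate. Because RNA came from the whole organ, fewer stellate cells and less RNA per stellate cell cannot be told apart in any value below.

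Total counts ran from 17815568 to 24814263 per library, and did not separate the groups (two-sided exact permutation test, p = 0.115). Library-wide measures did move with the groups. The mitochondrial share of counts was 6.49 ± 1.15% (SD, n = 6) in the ethionine group and 8.62 ± 1.09% (SD, n = 6) without ethionine (exact permutation p = 0.0108, adjusted over 3 measures 0.0162), and the TMM scaling factor was 1.07 against 0.941 (exact permutation p = 0.00216, adjusted 0.00648). Although all animals are stated to be male, FLO replicate 3 held 3773 counts of Xist and 4 of the Y-linked gene Ddx3y. FLO replicates 2 and 3 also held RNA of skeletal muscle genes. Des, Lrat, Pnpla3, Cyp26a1, Lpl and Acta2, which are among the refitted genes whose values or calls changed without these libraries, are given with and without them.

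Most of the stellate cell genes did not pass the test. By edgeR's quasi-likelihood test, 1 of the 10, Lrat, was called higher in fibrotic livers at a false discovery rate (FDR) of 0.01 or less and an absolute log2 fold change over 0.5, and 0 of the 10 were called lower. Over all tested genes 15.9% were called higher, 14.0% lower and 29.9% in either direction. The median log2 fold change of the 10 genes was 0.16, with 6 above and 4 below zero, beside 0.03 over all tested genes. At an unadjusted p under 0.05 the count was 1 higher (Lrat) and 1 lower (Des), DESeq2 called 1 higher and 0 lower, and limma-voom called 0. The values of the fibrotic and FLO livers overlapped for all 10 genes, whereas 30.4% of all tested genes did not overlap between the groups. Summed over the 10 genes, expression ran from 157 to 261 CPM, that is, counts scaled to a common library size, in fibrotic and from 158 to 237 CPM in FLO livers.

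**Figure D1:**
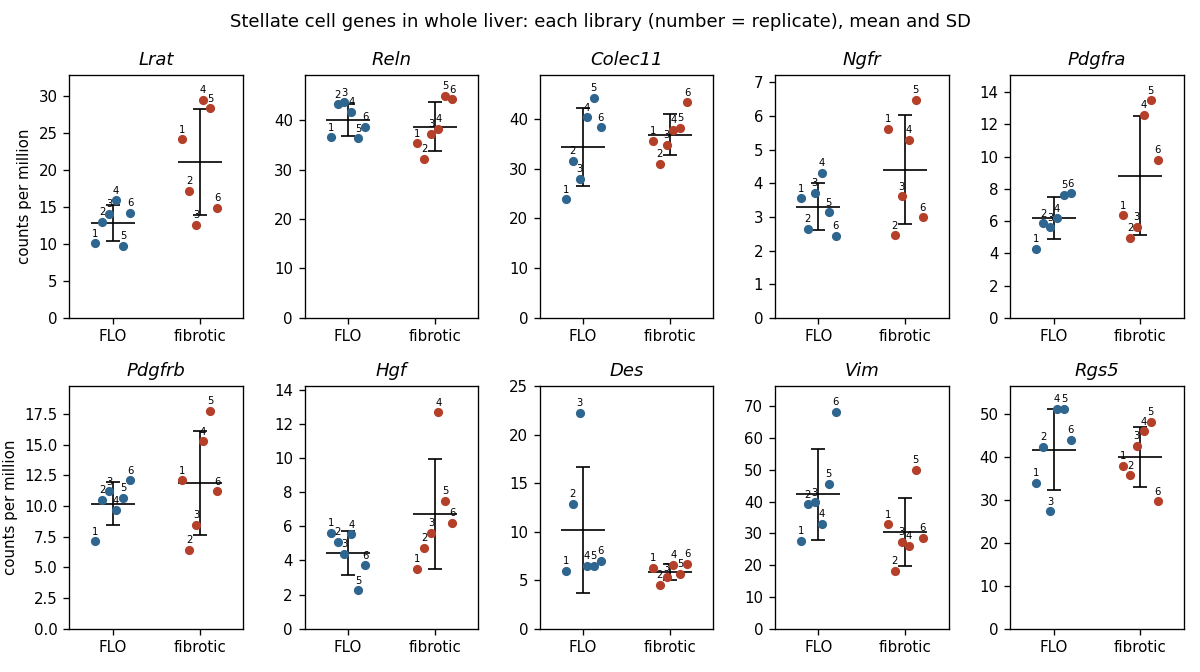
CPM (vertical axis, from 0) of the 10 stellate cell genes in each FLO (blue) and fibrotic (red) liver, with the replicate number beside each point and a bar and whiskers for the mean and SD of 6 livers. The groups overlap in every panel; Lrat reached 29.5 in fibrotic against at most 15.9 in FLO livers, and the high Des values of 12.9 and 22.3 belong to FLO replicates 2 and 3.

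Lrat (ENSMUSG00000028003, chr3:82892579-82903973, minus strand), the vitamin A esterifying enzyme and a widely used stellate cell marker, rose in fibrotic livers. Fibrotic livers had 12.6 CPM at the lowest, 20.7 at the median and 29.5 at the highest, and FLO livers had 9.77, 13.5 and 15.9 CPM. Of the fibrotic livers, 5 of 6 lay above the FLO median, but replicates 2, 3 and 6, at 17.2, 12.6 and 14.9 CPM, were close to or within the FLO range, and replicates 1, 4 and 5 stood clearly above it. The means were 21.1 ± 7.21 CPM (SD, n = 6) and 12.8 ± 2.44 CPM (SD, n = 6). The log2 fold change was 0.72 (SE 0.21, 95% interval 0.27 to 1.16, edgeR adjusted p = 0.00958), so that Lrat passed the FDR threshold by a narrow margin. Of 26 other settings, 16 ended the call, each with Lrat still higher. Leaving out 1 library at a time gave log2 fold changes from 0.61 to 0.84 and adjusted p from 0.00185 to 0.0239, and the call was lost without any 1 of fibrotic replicates 1, 4 and 5 or FLO replicates 1, 2, 3, 5 and 6. Without fibrotic replicates 4 and 5 together it was 0.44 (edgeR adjusted p = 0.0645), without FLO replicates 2 and 3 together 0.75 (adjusted p = 0.0288), and with the replicate number as a block 0.67 (adjusted p = 0.0278).

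Around Lrat, genes that carry, make and break down vitamin A compounds changed in both directions. Of 18 retinoid genes, 14 were tested, 4 were called higher and 3 lower, with a median log2 fold change of 0.23. Among all tested genes 15.9% were called higher and 14.0% lower. Dgat1, a second enzyme able to make retinyl esters, did not overlap between groups and rose by 0.56 on the log2 scale (edgeR adjusted p = 1.71e-05), from a median of 33.5 CPM in FLO to 49.0 CPM in fibrotic livers. Lpl, a lipase that also releases retinol from circulating lipoproteins, rose by 1.64 (adjusted p = 0.00204). The call of Lpl was lost with the replicate number as a block (1.56, adjusted p = 0.0214), and kept without FLO replicates 2 and 3 together (1.93, adjusted p = 0.00257). Pnpla3, a lipid droplet hydrolase with activity on retinyl esters, fell by 2.74 (adjusted p = 0.00167) from a low level of 1.42 CPM at the FLO median to 0.394 CPM at the fibrotic median. With 0.0936 to 0.806 CPM in fibrotic livers, it passed the low-count filter through the FLO livers. FLO replicate 3 had 8.81 CPM against 1.01 to 2.45 CPM in the other FLO livers, and without it Pnpla3 fell by 1.88 (adjusted p = 0.000991). Without FLO replicates 2 and 3 together Pnpla3 fell by 1.93 (adjusted p = 0.00222).

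On the oxidation side, Rdh10, which turns retinol into retinal, fell by 0.69 on the log2 scale (edgeR adjusted p = 4.21e-05), while Aldh1a1, which turns retinal into retinoic acid and is abundant in hepatocytes, rose by 1.40 (adjusted p = 2.12e-07). Neither overlapped between groups. Rbp4, the plasma carrier that hepatocytes secrete with retinol, fell by 0.80 (adjusted p = 2.02e-05). Cyp26b1, a retinoic acid degrading enzyme, had 28.8, 39.7 and 46.9 CPM in fibrotic and 10.9, 16.7 and 28.0 CPM in FLO livers, with no overlap, a log2 difference of 1.11 (SE 0.18, adjusted p = 0.000159). The list mixes hepatocyte and stellate cell genes, and whole-liver RNA does not assign a change to either cell type. The other 7 tested genes were not called. Among them Cyp26a1, the related degrading enzyme of hepatocytes, had a log2 fold change of 0.53 with an interval from -0.72 to 1.79 (adjusted p = 0.459). For Cyp26a1 it was 0.99 without FLO replicate 3 (adjusted p = 0.148) and 0.94 without FLO replicates 2 and 3 together (adjusted p = 0.231). Rarb, a retinoic acid receptor whose own gene responds to retinoic acid, had -0.15 with an interval from -0.61 to 0.30 (adjusted p = 0.576).

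**Figure D2:**
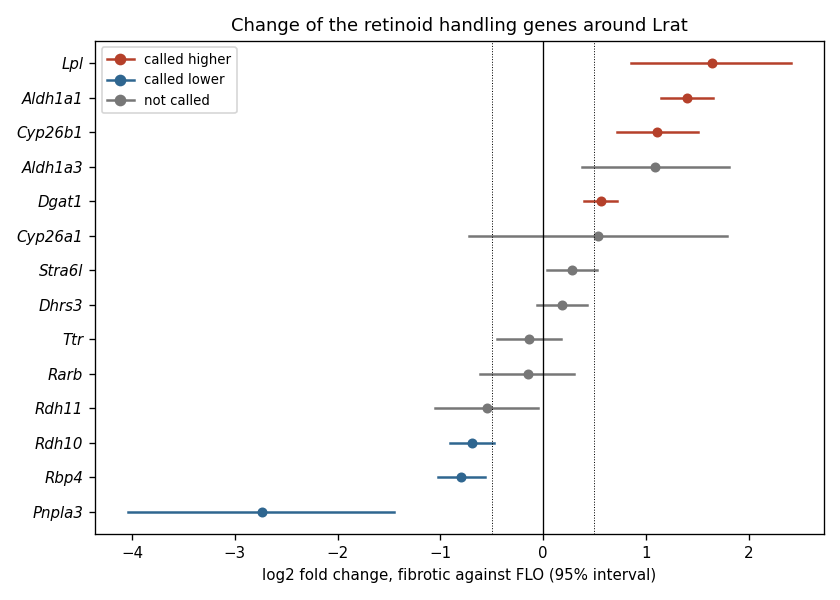
Log2 fold change of fibrotic against FLO livers (horizontal axis) with its 95% interval for 14 tested retinoid genes, red for those called higher, blue for those called lower and grey for the rest, with dotted lines at the fold threshold of 0.5 in either direction. Lpl at 1.64 is highest and Pnpla3 at -2.74 lowest, and 7 genes were called.

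Promoter sequence was compared for Lrat and for Cyp26a1 and Rarb, since retinoic acid receptors are known to act on the latter genes through direct repeats of a half-site. The motif searched was the half-site AGGTCA, or its variants (AGTTCA) with 1 base changed, (GGGTCA) with another, or (GGTTCA) with both, followed after a spacer of 5 bases by any of these, read on both strands, in the 250 bases before each start (RefSeq, GRCm38.p6, which is the mm10 build). It occurred in 29 of 32851 such windows, or 0.0883%, and the half-site alone in 38.6%. The sequences that follow are the Lrat window, which lies upstream of the gene (chr3:82903975-82904224, minus strand) and held no half-site, and the Cyp26a1 window (chr19:37697558-37697807, plus strand), upstream of the gene except for 10 bases inside an annotated exon, with the repeat in capitals 32 to 16 bases before the start. The Rarb repeat (chr14:16575513-16575529, minus strand), 53 to 37 bases before the RefSeq start and inside an exon of another Rarb transcript, is shown alone.
Lrat: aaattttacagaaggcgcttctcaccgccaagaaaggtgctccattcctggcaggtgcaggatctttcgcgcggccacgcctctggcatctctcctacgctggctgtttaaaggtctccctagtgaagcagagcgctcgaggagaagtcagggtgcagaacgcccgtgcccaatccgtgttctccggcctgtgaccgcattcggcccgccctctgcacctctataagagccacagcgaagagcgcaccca
Cyp26a1: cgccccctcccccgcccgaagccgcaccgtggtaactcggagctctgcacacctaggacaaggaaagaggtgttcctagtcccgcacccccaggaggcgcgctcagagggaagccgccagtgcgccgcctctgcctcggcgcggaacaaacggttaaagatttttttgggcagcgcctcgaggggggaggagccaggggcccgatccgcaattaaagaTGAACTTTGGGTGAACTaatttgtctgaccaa
Rarb: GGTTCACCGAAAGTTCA
Both genes whose windows held the repeat were among those not called, and the Cyp26b1 window (chr6:84593811-84594060, minus strand), of a gene that rose, held neither repeat nor half-site. Of the other called retinoid genes, Aldh1a1 and Rbp4 each held a half-site in 1 of 2 windows and no repeat, and Pnpla3 held neither. Dgat1, Rdh10 and Lpl had no window to search. Of the 10 stellate cell genes 9 were looked up in the table, none held the repeat, and Hgf alone held a half-site. A match or its absence describes these letters in these windows only.

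Reln, Colec11 and Ngfr complete the identity markers, and none of them was called. Reln (ENSMUSG00000042453, chr5:21884454-22344702, minus strand) encodes reelin, a large secreted glycoprotein made in liver by stellate cells. It ran from 32.2 to 44.9 CPM (median 37.8) in fibrotic and from 36.3 to 43.6 CPM (median 40.2) in FLO livers, so that the FLO range lay inside the fibrotic one. It was the steadiest of the 10 genes, with a biological coefficient of variation of 0.123, and its log2 fold change was -0.05 with a 95% interval from -0.24 to 0.15 (SE 0.09, edgeR adjusted p = 0.679). An increase or decrease as large as the fold threshold of 0.5 lies outside that interval.

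Colec11 (ENSMUSG00000036655, chr12:28594173-28623377, minus strand), a collectin of the lectin pathway of complement, ran from 31.0 to 43.3 CPM (median 36.6) in fibrotic and from 23.8 to 44.2 CPM (median 34.9) in FLO livers. The fibrotic range lay inside the FLO range, and the log2 fold change was 0.10 with an interval from -0.19 to 0.39 (SE 0.14, adjusted p = 0.567), again inside the fold threshold. Ngfr (ENSMUSG00000000120, chr11:95568818-95587735, minus strand), the p75 neurotrophin receptor, was low in every liver, with 46 to 129 counts. It ran from 2.45 to 6.49 CPM (median 4.45) in fibrotic and from 2.44 to 4.31 CPM (median 3.35) in FLO livers. Fibrotic replicates 1, 4 and 5 lay above every FLO liver and the other 3 did not, and the log2 fold change of 0.42 had an interval from -0.08 to 0.92 (SE 0.23, adjusted p = 0.152).

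Among 16 tested partners of these markers 5 were called, a share close to the 29.9% over all tested genes. Among reelin partners, 3 of 5 were tested and none was called by edgeR, DESeq2 or limma-voom. Of these, 1 had an unadjusted p under 0.05, Bmp1, a protease that cuts reelin, with a log2 fold change of -0.37 (adjusted p = 0.000752), under the fold threshold. Of the 7 other lectin pathway genes, Fcna rose by 0.54 (adjusted p = 0.000144), while the scavenger collectin Colec12 fell by 0.73 (adjusted p = 5.92e-05) and the protease Masp2 fell by 0.69 (adjusted p = 0.000465). Colec10, the collectin that pairs with Colec11 in plasma, had 0.13 (adjusted p = 0.422), close to the value of Colec11. Of 6 tested neurotrophin genes, the receptor Ntrk2 fell by 1.13 (adjusted p = 0.000276), and Sort1, a sorting receptor that can pair with the p75 receptor and is expressed in hepatocytes, rose by 1.88 (adjusted p = 7.84e-07).

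The signalling genes Pdgfra, Pdgfrb and Hgf had higher means in fibrotic livers, within the spread between animals. Pdgfrb (ENSMUSG00000024620), the receptor for PDGF-B and PDGF-D that marks stellate cells and pericytes, ran from 6.42 to 17.8 CPM (median 11.7) in fibrotic and from 7.11 to 12.1 CPM (median 10.6) in FLO livers. Fibrotic livers held both the lowest and the highest value, and the log2 fold change was 0.22 with an interval from -0.23 to 0.67 (SE 0.21, edgeR adjusted p = 0.398). Pdgfra (ENSMUSG00000029231, chr5:75152292-75198215, plus strand), the receptor for PDGF-A and PDGF-C, ran from 4.94 to 13.5 CPM (median 8.09) against 4.27 to 7.72 CPM (median 6.01). Fibrotic replicates 4, 5 and 6 lay above every FLO liver and replicates 1, 2 and 3 within the FLO range, and the log2 fold change was 0.51 with an interval from -0.02 to 1.03 (SE 0.25, adjusted p = 0.0993).

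Hgf (ENSMUSG00000028864, chr5:16553495-16620152, plus strand) encodes hepatocyte growth factor, which stellate cells release and hepatocytes sense through Met. It ran from 3.49 to 12.7 CPM (median 5.92) in fibrotic and from 2.25 to 5.63 CPM (median 4.76) in FLO livers. The highest value, 12.7 CPM in fibrotic replicate 4, stood well above the next, 7.50 CPM in replicate 5. The log2 fold change was 0.60 with an interval from -0.01 to 1.21 (SE 0.29, adjusted p = 0.094), and without fibrotic replicate 4 it was 0.32 (adjusted p = 0.269). Leaving out the liver with the highest Hgf was bound to give a smaller difference. Over all livers left out 1 at a time it ran from 0.32 to 0.73, with adjusted p from 0.0361 to 0.269.

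Fibrotic replicates 4 and 5 held most of the highest values. In a fit without them, chosen after the values were seen because they were highest, and so bound to give smaller differences, the log2 fold change was 0.12 for Pdgfra, -0.08 for Pdgfrb, 0.18 for Hgf and 0.16 for Ngfr (adjusted p = 0.654, 0.732, 0.556 and 0.603). Fibrotic replicate 5 was the highest fibrotic liver for 6 of the 10 genes and replicate 4 for Lrat and Hgf, while replicate 2 was the lowest for 7. In the FLO group replicate 1 was the lowest for 5 of the 10. Differences between animals of 1 group were thus shared by several stellate cell genes. Replicates 4 and 5 also had the largest TMM factors, 1.20 and 1.11, whose part in the values was not tested.

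**Figure D3:**
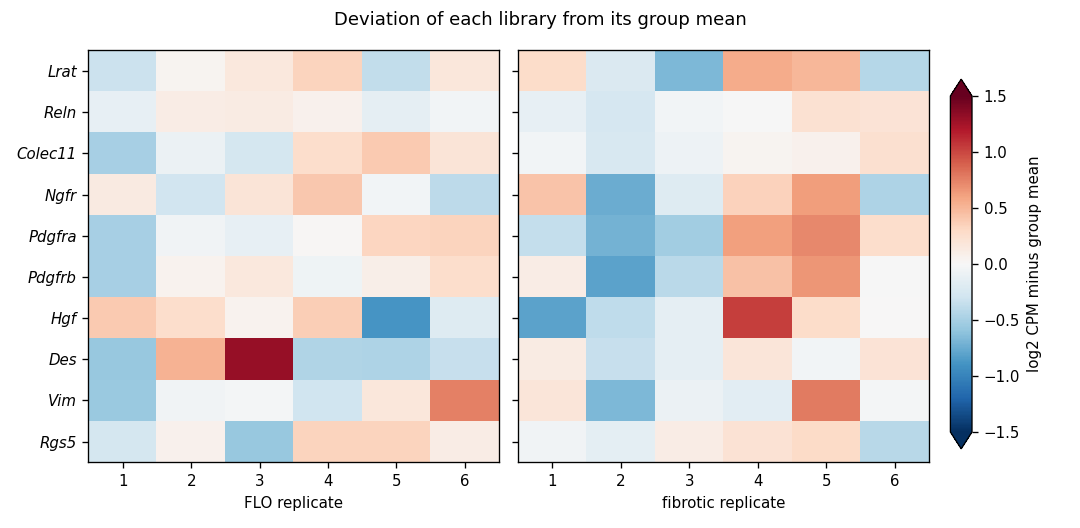
Deviation of each liver from its group mean in log2 CPM (colour, red above and blue below) for the 10 stellate cell genes (rows) in FLO and fibrotic replicates 1 to 6 (columns). Fibrotic replicates 4 and 5 are red for most genes and replicate 2 is blue for most, and Des in FLO replicate 3 stands apart.

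Some ligands of the PDGF receptors and some proteases and inhibitors around Hgf were called, beside 15.9% of all tested genes called higher and 14.0% lower. Of 4 PDGF ligand genes, Pdgfc rose by 0.94 on the log2 scale (SE 0.21, edgeR adjusted p = 0.00136), from a median of 3.65 CPM in FLO to 7.69 CPM in fibrotic livers, with overlap. Pdgfd had 0.65 (adjusted p = 0.0304), Pdgfa 0.25 and Pdgfb -0.01, none called. Of 9 genes around Hgf, 3 were called higher and 1 lower, with a median of -0.40. Hgfac, the liver-made protease that activates Hgf, fell by 0.98 (adjusted p = 9.41e-05), with 67.0 to 148 CPM in fibrotic and 215 to 274 CPM in FLO livers. The epithelial protease St14 and its inhibitor Spint1 rose by 2.84 and 1.54 (adjusted p = 8.81e-05 and 0.00295). Serpina5, an inhibitor of Hgfac, rose by 4.34 (adjusted p = 9.97e-06) from a level near zero. With 0.0856 to 0.508 CPM in FLO and 2.04 to 10.9 CPM in fibrotic livers, it passed the low-count filter through the fibrotic livers. The receptor gene Met had -0.46 (adjusted p = 0.000311), under the fold threshold but with no overlap between groups.

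The filament genes Des and Vim had lower means in fibrotic livers, and neither was called. Des (ENSMUSG00000026208, chr1:75360329-75368579, plus strand) encodes desmin, the intermediate filament of muscle that rodent stellate cells also make. It ran from 4.53 to 6.68 CPM (median 5.97) in fibrotic and from 5.96 to 22.3 CPM (median 6.71) in FLO livers. All 6 fibrotic livers lay below the FLO median, but 4 of the 6 FLO livers, at 5.96 to 6.96 CPM, were within or just above the fibrotic range, and replicates 2 and 3, at 12.9 and 22.3 CPM, stood out. The log2 fold change was -0.80 with an interval from -1.46 to -0.14 (SE 0.31, edgeR adjusted p = 0.041), past an FDR of 0.05 but not of 0.01.

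FLO replicates 2 and 3 also held transcripts of skeletal muscle. A list of 14 skeletal muscle genes, written after the values of Des were seen, summed to 150 and 323 CPM in FLO replicates 2 and 3, to 0.734 to 1.47 CPM in the other FLO livers and to 1.29 to 3.04 CPM in fibrotic livers. Acta1, the skeletal muscle actin, had 41.5 and 105 CPM there and at most 0.421 CPM in any other liver, and Mb, myoglobin, had 15.6 and 31.9 CPM there and 0 in all the others. Only 1 of the 14 genes, Myh4, passed the low-count filter and it was not called (log2 fold change 0.81, edgeR adjusted p = 0.466); 0 of them had an unadjusted p under 0.05 by edgeR, limma-voom called 0, and DESeq2 called 9 lower. Without FLO replicates 2 and 3 the log2 fold change of Des was -0.15 (SE 0.14, adjusted p = 0.411). Those livers had the highest Des, so that leaving them out was bound to give a smaller difference. The genes whose values followed Des most closely across the 12 livers, after centring on the group means, were Oxct1, Slc25a4 and Ldb3 (Pearson r 0.96, 0.96 and 0.95), of which Ldb3 encodes a protein of the muscle Z-disc.

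**Figure D4:**
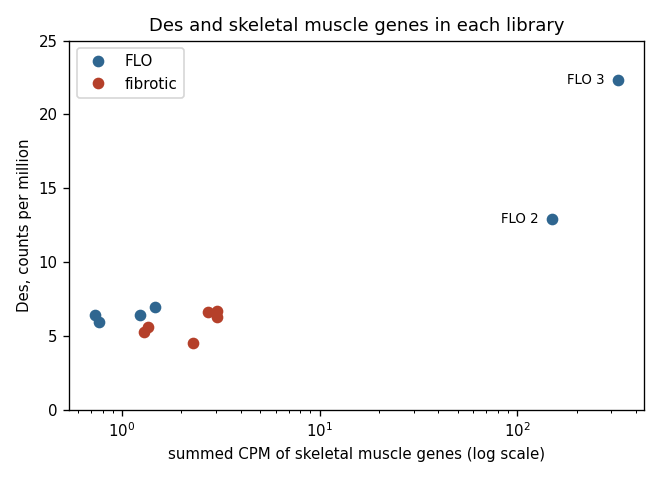
Des in CPM (vertical axis, from 0) against the summed CPM of 14 skeletal muscle genes (horizontal axis, log scale) in each FLO (blue) and fibrotic (red) liver. FLO replicates 2 and 3, at 150 and 323 on the horizontal axis, have the highest Des, and every other liver lies between 4.53 and 6.96.

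Vim (ENSMUSG00000026728, chr2:13573927-13582826, plus strand) encodes vimentin, the intermediate filament of mesenchymal, endothelial and immune cells. It ran from 18.2 to 50.1 CPM (median 28.0) in fibrotic and from 27.6 to 68.4 CPM (median 39.5) in FLO livers. Of the fibrotic livers 5 of 6 lay below the FLO median, with replicate 5 the exception, and the ranges overlapped widely. The log2 fold change was -0.47 with an interval from -0.99 to 0.05 (SE 0.24, edgeR adjusted p = 0.119), and it ran from -0.66 without fibrotic replicate 5 to -0.28 without FLO replicate 6. Of 8 other tested filament and filament-linker genes, 7 had a log2 fold change below zero and Krt8, a keratin of hepatocytes and bile duct cells, was the one called (-0.68, adjusted p = 0.00784, with overlap). The 1 gene above zero, Plec, had 0.43 (adjusted p = 0.00308), under the fold threshold but with no overlap between groups. The share called over all tested genes was 29.9%.

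Rgs5 (ENSMUSG00000026678, chr1:169655501-169695813, plus strand), a regulator of G protein signalling found in pericytes and stellate cells, did not separate the groups. It ran from 29.6 to 48.2 CPM (median 40.3) in fibrotic and from 27.3 to 51.2 CPM (median 43.2) in FLO livers. The fibrotic range lay inside the FLO range, and the log2 fold change was -0.06 with an interval from -0.39 to 0.27 (SE 0.15, edgeR adjusted p = 0.769). Its sign turned to 0.02 and 0.01 when single livers were left out. Of 8 other tested Rgs genes, Rgs3 alone was called (-0.55, adjusted p = 0.00772), beside 29.9% of all tested genes.

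**Figure D5:**
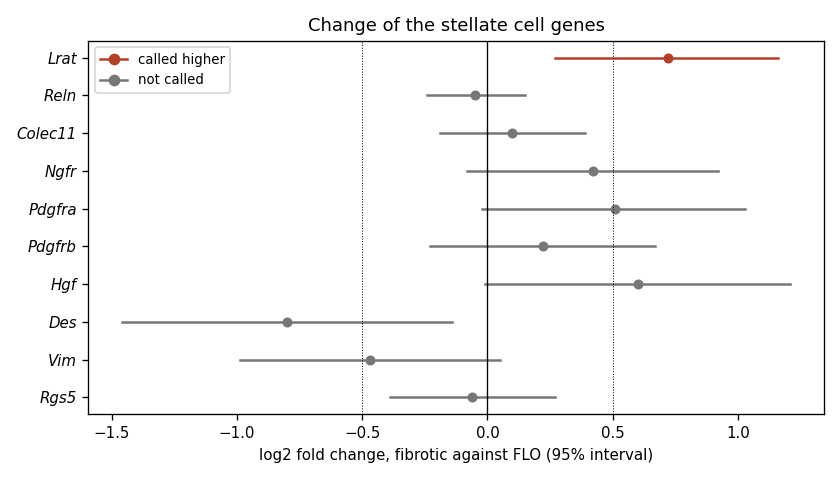
Log2 fold change of fibrotic against FLO livers (horizontal axis) with its 95% interval for the 10 stellate cell genes, red for the gene called higher and grey for the rest, with dotted lines at the fold threshold of 0.5 in either direction. Lrat at 0.72 is the gene called, the intervals of Reln, Colec11 and Rgs5 stay inside the dotted lines, and those of the other genes cross 1 of them.

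Levels of the 10 genes were set against each other per length of the longest annotated transcript, as CPM per kilobase. In FLO livers Colec11 was highest at 21.4 ± 4.91 (SD, n = 6), followed by Vim at 14.4 ± 4.87 and Rgs5 at 10.2 ± 2.32 CPM per kilobase. A gap then separated Rgs5, with at least 6.66, from Reln at 3.42 ± 0.281 CPM per kilobase, although Des reached 7.35 in FLO replicate 3. Des had 3.35 ± 2.13, Lrat 2.40 ± 0.457, Pdgfrb 1.88 ± 0.318, Hgf 1.28 ± 0.374, Ngfr 0.958 ± 0.204 and Pdgfra 0.909 ± 0.192 CPM per kilobase. Each of the neighbours in that order overlapped in range except Rgs5 and Reln. In fibrotic livers the first 3 places were the same, Lrat moved from place 6 to place 4, at 3.95 ± 1.35 CPM per kilobase, and Des from place 5 to place 8, at 1.93 ± 0.279 CPM per kilobase. Without FLO replicates 2 and 3, the livers with skeletal muscle transcripts, Des had 2.13 ± 0.134 (SD, n = 4) CPM per kilobase and place 6 in FLO, behind Lrat at 2.33 ± 0.569 CPM per kilobase.

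Across the 12 livers, centred on the group means, the genes that followed the signalling receptors most closely were Cbx6, Ptger4 and Col5a2 for Pdgfrb (Pearson r 0.97, 0.97 and 0.96) and Cyp4f18, Tgfbi and Susd2 for Pdgfra (0.95, 0.94 and 0.94). Lrat was followed by Pask, Gng2 and Ezr (0.96, 0.92 and 0.91), Hgf by Otud7b, Pip4k2c and Tanc1 (0.95, 0.95 and 0.94), and Ngfr by Klhl4, Car13 and Prc1 (0.95, 0.90 and 0.89). Reln was followed by Aqp1, Nudcd2 and Lpar1 (0.91, 0.87 and 0.87), Colec11 by Mcoln1 and Orm2 (0.92 each), Vim by Rhpn2, C1qtnf5 and Lhfp (0.93, 0.93 and 0.90), and Rgs5 by Alpl, Ephb2 and Eci2 (0.89, 0.88 and 0.88). By rank (Spearman) the values for Vim were lower, at 0.77, 0.71 and 0.64, and those of the other named genes were 0.76 to 0.97. These are descriptions of 12 libraries that share tissue composition and scaling, picked as the highest of 13416 genes.

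Other genes of stellate cells were mostly not called. The shares over all tested genes were 29.9% called in either direction and 14.0% called lower. Of 30 further stellate cell genes all were tested and 2 were called, both lower: Cxcl12, a chemokine, at -0.69 (edgeR adjusted p = 2.26e-05), and Steap4, a metalloreductase also made by hepatocytes, at -0.56 (adjusted p = 0.000762). Their median log2 fold change was 0.06. Among transcription factor genes of the list, Hand2, Tcf21 and Gata4 had 0.07, 0.00 and 0.09, Gata6 -0.11, Nr1h4 -0.05 and Ets1 0.22. Lhx2 had 0.41 with an interval from 0.01 to 0.81 (adjusted p = 0.0796), and none of these was called. Of 26 genes of stellate cell activation and matrix, 1 was called, Acta2, the smooth muscle actin of myofibroblasts and vessel walls, which fell by 1.15 (adjusted p = 0.00446), a call lost in 9 of 26 other settings. The call of Acta2 was lost without any 1 of fibrotic replicates 3, 4 and 6 or FLO replicates 3 and 6 (-1.01 without FLO replicate 3, adjusted p = 0.0109), and without FLO replicates 2 and 3 together (-1.07, adjusted p = 0.0143). Col1a1 had -0.22 with an interval from -0.94 to 0.51 (adjusted p = 0.611), and the median of the 26 was 0.12. For ob/ob mice given ethionine, the study likewise reported no Col1a1 difference, and described the model by microvesicular steatosis and inflammation.

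Markers of other cell types moved with the groups, and their part in the values of the stellate cell genes was not tested. The counts below stand beside 15.9% of all tested genes called higher and 14.0% called lower. Of 12 Kupffer cell and macrophage genes, 7 were called higher, the largest changes being Marco at 1.63, Adgre1 at 0.81, Csf1r at 0.80 and Cd5l at 0.79, and the summed level was 294 to 628 CPM in fibrotic against 246 to 285 CPM in FLO livers. Of 7 tested bile duct genes, 5 were called higher (among them Tspan8 at 2.03, Muc1 at 1.98, Epcam at 1.35 and Sox9 at 1.16). The sums over all 8 listed bile duct genes were 84.8 to 288 against 48.4 to 90.9 CPM. Summed markers of smooth muscle, portal fibroblast and endothelial cells lay lower in fibrotic livers, but the gap in the first 2 sums came mostly from single genes. Of 7 tested smooth muscle and pericyte genes, Mylk was called (-0.97), and the sum over all 10 listed was 56.3 to 63.6 against 91.4 to 103 CPM. Of 9 tested portal fibroblast and mesothelial genes Gas1 was called (-3.10), and the sum over all 12 listed was 13.1 to 30.3 against 34.9 to 56.6 CPM. Without Mylk and Gas1 these sums were 24.8 to 31.9 against 27.2 to 39.7 CPM and 11.9 to 26.8 against 15.3 to 33.7 CPM, and the groups overlapped. Most genes of both lists still lay on the lower side. The log2 fold change was negative for 6 of 7 smooth muscle and pericyte genes (median -0.39). It was negative for 8 of 9 portal fibroblast and mesothelial genes (median -0.35). At an unadjusted p under 0.05, 4 and 3 genes were lower, and 1 and 0 higher. All 10 endothelial genes had a negative log2 fold change, Kdr being called (-0.58), with sums of 278 to 335 against 353 to 396 CPM. Of 9 hepatocyte genes Fgb (0.82) and Cps1 (0.73) were called higher and Apoa1 (-1.68) and Serpina1a (-1.43) lower. Of 2 tested lymphocyte genes neither had an unadjusted p under 0.05 and neither was called by edgeR, DESeq2 or limma-voom. The 30 further stellate cell genes summed to 1220 to 1450 CPM in fibrotic and 1350 to 1480 CPM in FLO livers, so that the ranges overlapped. That sum rests largely on a few abundant genes. Their FLO means were 331 CPM for Tmem56, 171 for Cxcl12, 162 for Ecm1, 133 for Dcn, 130 for Steap4 and 115 for Nr1h4. Whole-liver RNA does not assign these genes to a cell type, so the overlap does not measure stellate cell content.

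Some reads of the named genes may belong to overlapping transcripts, since the sources used here do not state whether counting used strand. In the annotation, exons of Reln, Pdgfra and Des overlap antisense transcripts by 246, 456 and 220 bases, and Pdgfra overlaps a further opposite-strand transcript by 166 bases. On their own strand, Hgf overlaps a transcript by 484 bases and Pdgfra a microRNA by 30 bases. Lrat, Colec11, Ngfr, Pdgfrb, Vim and Rgs5 overlap no other gene.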

How the data were processed

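RNA-Seq of whole liver was available for 12 ob/ob mice, 6 per group, grouped by the sample titles. The deposited table holds raw, unnormalized counts made by the authors for each Ensembl gene. STAR 2.7.3a and PISCES are named in the study's methods, the submitters' processing notes list the build mm10, and the mouse annotation and strand setting are not given in the sources used here. Gene symbols came from a name table that matched 51745 of 56205 identifiers, and the rest held 0.0587% of counts. Positions and transcript lengths are those of GENCODE M21 (mm10), in which 4460 identifiers were not found.

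Differential expression was fitted across all genes by the quasi-likelihood test of edgeR 4.0.16 under R 4.3.3 (robust, TMM, filterByExpr) and Benjamini-Hochberg adjustment. Genes were called at FDR of 0.01 or less and an absolute log2 fold change over 0.5. The SE is the absolute log2 fold change divided by the square root of F. CPM were scaled to the TMM library size, and log2 CPM used a prior count of 2. Library measures were tested by exact permutation (two-sided, 924 assignments). P-values measure the spread between animals, and the depth of 17815568 to 24814263 counts gave 38 to 1347 counts per stellate cell gene and library. Every pair of libraries of 1 group differed by more than sampling noise (chi-square per degree of freedom of at least 10.3).

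The stellate cell genes and the other lists were chosen with earlier results of these data known, and the skeletal muscle list and 2 alternatives (without fibrotic replicates 4 and 5, and without FLO replicates 2 and 3) were added after the values here were seen. All called genes of the pathway lists, up to 4 called genes of each marker list, and the 3 genes most like each stellate cell gene were to be named. Some genes of these lists are not reported here and were left out of the list counts, and 1 of the most alike genes is not named. Alternatives were RLE and upper quartile factors, TMM without the 50 genes with most counts, other low-count filters, DESeq2 1.42.0, limma-voom (limma 3.58.1), a replicate block, a non-robust fit, leaving out each library in turn and other thresholds. The fit was tested on simulated data. The labels give no batch.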

Additional observations from a re-analysis of the deposited data

Results flagged for a closer look

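Among 88 sets of 6 libraries examined for a single distant value, covering the stellate cell genes, the lists' sums and the other genes recomputed under each alternative, 1 was found, where chance gives about 4.4. Hgfac, the protease that activates hepatocyte growth factor, was lowest in fibrotic replicate 4, with a gap to the next library of 0.714 of the group's range in log2 CPM. The same library had the highest Hgf. None of the 10 stellate cell genes had such a value in either group, and the high Des values were shared by FLO replicates 2 and 3.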

How the results depend on the processing

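Of the stellate cell genes 1 was called, Lrat, higher. This count of genes called, and of genes called higher, was 0 with RLE factors, upper quartile factors, no low-count filter, limma-voom, the replicate block, a log2 fold change over 1, without fibrotic replicates 4 and 5 together and without FLO replicates 2 and 3 together, and 0 to 1 when single libraries were left out. At an FDR of 0.05 it was 2, as Des was added and the count called lower became 1. Lrat stayed higher in all 26 alternatives, at 0.44 to 0.84 (adjusted p = 0.00185 to 0.0645). With a log2 fold change over 1 the retinoid genes called went from 7 to 4 and all genes called from 4012 to 1697. The sign turned for Pdgfrb without fibrotic replicates 4 and 5 (-0.08), for Reln without FLO replicates 2 and 3 (0.01) and for Rgs5 when single libraries were left out (-0.16 to 0.02). The cause of these changes was not tested. The median of all genes stayed between 0.00 and 0.03 under each scaling. Groups share replicate numbers 1 to 6, but same-numbered libraries did not deviate together (correlations from -0.16 to 0.10, none best with its own number), and besides Lrat the replicate block ended the calls of Lpl and Acta2 among the genes recomputed. All 10 genes passed the filter, so the alternatives for genes below it gave no value. For low genes such as Hgf and Ngfr, with 38 and 46 counts in the lowest library, the intervals include changes past the fold threshold.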
